A study of Rattus norvegicus with 30 samples.

Results

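Left ventricles of chow-fed rats that had worked outside the body for 60 min on a buffer with glucose were compared with left ventricles of chow-fed rats frozen without perfusion. The members were chosen by the sample titles: 5 glucose-perfused and 5 non-perfused chow hearts, 10 of the 30 arrays of the series, with every gene above background. All animals were male Sprague Dawley rats of 16 to 18 weeks on rodent chow, anaesthetised with chloral hydrate at 500 mg/kg, and every heart was cut out and placed in ice-cold Krebs-Henseleit buffer. The non-perfused hearts were dissected and frozen at once. The perfused hearts pumped in the working mode, with a filling pressure of 15 cm H2O and an afterload of 100 cm H2O, at normal temperature and oxygen. Their buffer held glucose (25 mmol/L) beside the ketone bodies beta-hydroxybutyrate (10 mmol/L, DL form) and acetoacetate (1 mmol/L), with propionate at 2 mmol/L and calcium at 2.5 mmol/L. Another 5 chow hearts had mannitol at 25 mmol/L in place of glucose, as an osmotic control, and the series repeats all 3 states in rats that ate a high-sucrose diet (8 to 10 weeks). The labels describe the 5 samples of a group as biological replicates. The contrast holds everything that sets a perfused heart apart (rewarming after cold arrest, flow without blood cells, denervation, the buffer and the time), so no single one of these can be read from it. It is also confounded with position: the chow glucose arrays all lay in row 2 of their slides and the non-perfused arrays in row 1, whereas the chow mannitol arrays shared row 1 with the non-perfused arrays.

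Cells that are stretched, rewarmed or exposed to growth factors switch on immediate-early genes within minutes, without new protein synthesis. These genes encode short-lived transcription factors (FOS and JUN family, EGR, NR4A, ATF3), and a later set encodes the feedback that ends the signal: phosphatases, proteins that destroy mRNA, and inhibitors of kinases and of NF-kappaB. In the heart the same programme is known from isolated, perfused preparations and from ischaemia and reperfusion. A working heart burns fatty acids, ketone bodies, lactate and glucose, and switches between them partly through pyruvate dehydrogenase and its kinases.

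Of 18345 genes tested, 1740 (9.48%) differed between the glucose-perfused and the non-perfused chow hearts: 1002 (5.46%) were higher and 738 (4.02%) were lower. Rises were larger than falls. Of the called genes, 294 rose at least 2-fold and 95 fell at least 2-fold, with a median fold of 1.60 among the rises and 1.37 among the falls. The levels of the 5 and 5 hearts did not overlap for 1322 of the called genes (over all genes tested, for 1731, 9.44%: 950 higher, 5.18%, and 781 lower, 4.26%), and 1684 of the called genes (96.8%) moved one way on all 4 slides that hold both groups, as did 29.5% of all genes tested. The first principal component of the 10 arrays carried 31.9% of their variance, and the state of the heart accounted for 97.4% of it. The next component (19.1%) followed the slide, which accounted for 92.9%. With the authors' deposited values only 418 genes were called, 302 higher and 116 lower, and with another background correction (normexp) 1141, 741 higher and 400 lower. The number of arrays limits the precision, and on these 10 arrays the share of probes well above background ran from 48.9% to 75%.

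Levels are given throughout as the log2 of a gene's signal minus the 75th percentile of its array, so they compare one gene between hearts and not 2 genes with each other. Changes are differences of these log2 levels with their standard error (SE), tested with limma, and a gene is said to rise or fall where its p-value, adjusted by the Benjamini-Hochberg method over all genes tested, was below 0.05. The median change of all genes was -0.05. Counts of called list members are to be read against the shares over all genes tested, 5.46% higher and 4.02% lower. Of the called genes 415 had no gene symbol and are counted but not named. Under normexp the changes of 56 of the 203 genes named here moved by more than 1.5-fold, the fold shrank in all of these, and the lower group's mean lay below the array's 75th percentile in each. The brightest probe stands for a gene, and over the mean of a gene's probes 7 changes moved as far. These were Ptx3 (to 2.13), Spry4 (1.01), Csrnp1 (2.63), Crem (1.74), Npy (-3.37), Hba-a1 (-7.16) and Add2 (-1.81). The call of these genes was lost with the authors' deposited values: Add2, Angpt1, Areg, Atp5pf, Bmp2, Bpgm, Cacna1h, Ccl27, Cd2, Cdk2, Cma1, Cnot8, Cry2, Ddit4, Dll4, Dnajb11, Dusp6, Edn1, Fcnb, Gp1bb, Gzmb, Hk2, Ifit3, Igf1, Igf2, Kcne3, Kcnip2, Lipe, Lmcd1, Lum, Mrpl34, Pf4, Slc16a3, Tcf21, Tnfrsf1b, Txnip, Zmat3 and Zyx (adjusted p 0.0582 to 0.795). Under normexp the calls lost were those of Add2, Atp5pf, Ccl27, Cma1, Cnot8, Cry2, Dnajb11, Fcnb, Hk2, Kcnip2, Mrpl34, Tcf21 and Ube2c (adjusted p 0.057 to 0.317). The fit of only the chow glucose and chow non-perfused arrays lost Angpt1, Atp5pf, Cacna1h, Ccl27, Cd79b, Cma1, Cnot8, Dnajb11, Igf1, Igf2, Lum, Nppb, Pf4, Txnip, Ube2c and Ucp2 (adjusted p 0.0513 to 0.191). That fit with the replicate number as a block lost 27 calls (adjusted p 0.0526 to 0.251). They were Angpt1, Atp5pf, Cacna1h, Ccl27, Cd2, Cd79b, Ciart, Cma1, Cnot8, Cxcl10, Dnajb11, Gp1bb, Hk2 and Hmox1. The rest were Igf2, Kcnip2, Lum, Mrpl34, Nppb, Pf4, Procr, Tcf21, Timp1, Txnip, Ube2c, Ucp2 and Vcam1.

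Some named genes were near background. Of the 5 non-perfused hearts, 1 had Adamts4 well above background, 2 had Areg, Ciart, Edn1 and Il6, and 3 had Bnc1, Cd2, Cxcl2, Dusp2, Egr2, Krt19, Nr4a3, Ptx3 and Tnfaip6. Of the 5 glucose-perfused hearts, 1 had Kcne3, 2 had Bnc1, Fcnb, Krt19, Npy and Ube2c and 3 had Alas2, Cacna1h, Edn1, Egr3, H1f1, H1f5, Krt18, Msln and Thbs1. The folds of these genes depend on signals near background. A fold given as "at least" does so too, and is not a lower bound under other settings. Under normexp Fosl1 changed by 1.31, Egr4 by 1.82, Thbs1 by 0.7, Hba-a3 by -3.67 and Cd52 by -1.48. S100a9 changed there by -1.46, S100a8 by -0.91, Clec1b by -0.72, Tas2r120 by -0.95 and Cd79b by -0.29.

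Sites known to bind the factors of the early response were visible just before the start of several genes that rose. The windows below come from RefSeq (assembly GRCr8), read 5′ to 3′ on the gene's strand, and are shown because they carry such letters beside some of the largest rises. Other genes that rose, among them Junb, Nr4a2, Adamts1 and Angptl4, had no match to any motif searched. For Fos, Nr4a3 and Atf3 no promoter sequence was available. Capitals mark the matches: the CArG box of serum response factor in Egr2 and Zfp36, the cAMP response element TGACGTCA in Btg2, Ier2 and Dusp1, both that element and an NF-kappaB site in Il6, and an NF-kappaB site in Cxcl1 and Cxcl2.

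Egr2, chr20:21054495-21054544, minus strand: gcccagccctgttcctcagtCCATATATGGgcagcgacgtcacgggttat
Zfp36, chr1:92799111-92799160, minus strand: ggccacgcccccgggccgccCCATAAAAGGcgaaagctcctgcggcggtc
Btg2, chr13:48087864-48087911, minus strand: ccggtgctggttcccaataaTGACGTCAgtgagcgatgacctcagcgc
Ier2, chr19:40399287-40399334, plus strand: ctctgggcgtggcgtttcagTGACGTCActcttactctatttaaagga
Dusp1, chr10:17184709-17184756, plus strand: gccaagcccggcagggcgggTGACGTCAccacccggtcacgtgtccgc
Il6, chr4:5894614-5894757, minus strand: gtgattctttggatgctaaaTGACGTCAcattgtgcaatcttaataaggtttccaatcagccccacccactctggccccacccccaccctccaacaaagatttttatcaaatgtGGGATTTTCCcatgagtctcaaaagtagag
Cxcl1, chr14:17479375-17479425, minus strand: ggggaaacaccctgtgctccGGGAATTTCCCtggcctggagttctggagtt
Cxcl2, chr14:17467299-17467349, minus strand: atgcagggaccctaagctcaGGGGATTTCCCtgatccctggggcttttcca

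Each motif was searched on both strands in the 250 bases before the start, with overlapping matches counted once and no motif holding another. The cAMP response element lay before 17 of 196 (8.67%) of the genes that rose at least 2-fold and had an entry, and before 251 of 9292 (2.7%) of all tested genes with one. The NF-kappaB site lay before 24 of 196 (12.2%) against 375 of 9292 (4.04%), the AP-1 site TGANTCA before 25 of 196 (12.8%) against 452 of 9292 (4.86%), and the CArG box before 8 of 196 (4.08%) against 105 of 9292 (1.13%). Over all 27457 promoters of the table the shares were 1.7% for the cAMP response element, 3.52% for NF-kappaB, 6.36% for AP-1 and 1.5% for CArG. Among genes that fell at least 2-fold the motifs lay before 1 of 52 (1.92%), 1 of 52 (1.92%), 2 of 52 (3.85%) and 0 of 52, in the same order. These shares describe letters in a window, and no binding was measured.

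Immediate-early transcription factors were prominent among the largest rises. Of the 44 tested members of this list, 34 rose and none fell, with a median change of 1.83 (all genes -0.05). The orphan nuclear receptor Nr4a3 rose most of all genes tested: Nr4a3 stood at -4.88, -5.23, -4.94, -6.55 and -4.11 in non-perfused replicates 1 to 5 and at 2.02, 1.82, 2.57, 2.12 and 1.95 in glucose-perfused replicates 1 to 5. Every glucose-perfused heart thus lay above every non-perfused one, and Nr4a3 rose by 7.24 ± 0.56 (SE, log2, 151-fold, adjusted p = 2.57e-10). Its relatives Nr4a1 and Nr4a2 rose by 5.36 ± 0.41 (SE, log2, 41.1-fold, adjusted p = 2.45e-10) and by 4.74 ± 0.31 (SE, log2).

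For Fos, the partner of JUN in the AP-1 dimer, the perfused hearts were nearly identical and the non-perfused hearts were spread out. Fos stood at -3.29, -5.40, -0.05, -3.94 and -2.78 in non-perfused replicates 1 to 5 and at 3.52, 3.54, 3.59, 3.56 and 3.62 in glucose-perfused replicates 1 to 5. Non-perfused replicate 3 came within 3.56 log2 units of the lowest perfused heart, while the other 4 lay at least 6.29 below it. Fos rose by 6.65 ± 0.67 (SE, log2, 101-fold, adjusted p = 4.02e-08), and by 7.42 without non-perfused replicate 3. Atf3, a stress-induced member of the same bZIP family, gave the same picture: Atf3 stood at -0.80, -0.85, 1.08, -1.06 and -0.57 in non-perfused replicates 1 to 5 and at 6.20, 6.29, 6.39, 6.47 and 6.24 in glucose-perfused replicates 1 to 5. Atf3 rose by 6.76 ± 0.40 (SE, log2, 108-fold, adjusted p = 1.68e-12). Of the 13 tested AP-1 subunits 10 rose and none fell, among them Junb by 4.19, Fosl2 by 3.06, Jun by 2.37 and Jund by 1.80. Fosl1, which dimerises with JUN proteins, was not well above background in any non-perfused heart and was at least 16.1-fold higher after perfusion (adjusted p = 6.57e-05).

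Of the zinc finger factors of the EGR family 3 of 4 rose. Egr1 stood at -0.88, -2.31, 0.91, -1.48 and -0.67 in non-perfused replicates 1 to 5 and at 3.54, 4.18, 4.26, 4.02 and 4.03 in glucose-perfused replicates 1 to 5. The groups did not overlap, and Egr1 rose by 4.89 ± 0.40 (SE, log2, 29.7-fold, adjusted p = 7.65e-10). Egr2 rose by 5.03 ± 0.42 (SE, log2, 32.8-fold, adjusted p = 1.15e-09). Egr4 was well above background in all 5 perfused hearts and in none of the non-perfused ones, and was at least 31.6-fold higher (adjusted p = 5.84e-06). In all, 6 of the 7 tested NR4A and EGR genes rose, and the other, Egr3, changed by 0.34 ± 0.27 (SE, log2, adjusted p = 0.537). The small immediate-early gene Ier2 rose by 2.79. Myc, a growth-promoting factor that the adult heart expresses weakly, rose by 3.65 ± 0.22 (SE, log2, 12.5-fold, adjusted p = 1.74e-12).

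The changes with the smallest p-values were not the largest ones. Csrnp1, a nuclear transcriptional activator, ranged from -1.33 to -0.94 in the non-perfused and from 2.06 to 2.61 in the perfused hearts, and rose by 3.42 ± 0.14 (SE, log2, 10.7-fold, adjusted p = 1.6e-15). Rassf1, a scaffold of the Hippo and RAS pathways, rose by 2.41 ± 0.10 (SE, log2, 5.32-fold, adjusted p = 1.6e-15). Klf16 rose by 1.93 ± 0.09 (SE, log2, 3.81-fold, adjusted p = 7.61e-15), one of 5 Kruppel-like factors that rose among 11 tested. The others were Klf4 by 2.11, Klf6 by 1.86, Klf10 by 1.61 and Klf2 by 1.29, the last an endothelial gene known to respond to shear stress. Ifrd1, a transcriptional co-regulator, rose by 3.12 ± 0.18 (SE, log2, 8.68-fold, adjusted p = 6.97e-13), and the ephrin receptor gene Epha2 rose by 1.89 ± 0.10 (SE, log2, 3.71-fold, adjusted p = 2.38e-13).

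One non-perfused heart stood apart in these genes. Non-perfused replicate 3 had the highest non-perfused level for 20 of the 34 immediate-early genes that rose, and for 102 of the 294 genes that rose at least 2-fold. Among the perfused hearts, replicate 4 was the highest for 157 of those 294. Without non-perfused replicate 3, 34 of the 44 immediate-early genes rose, and without perfused replicate 4 34. The lists below were run without each array in turn as well, and a count is given again where this moved it by more than 1.5 times.

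**Figure D1:**
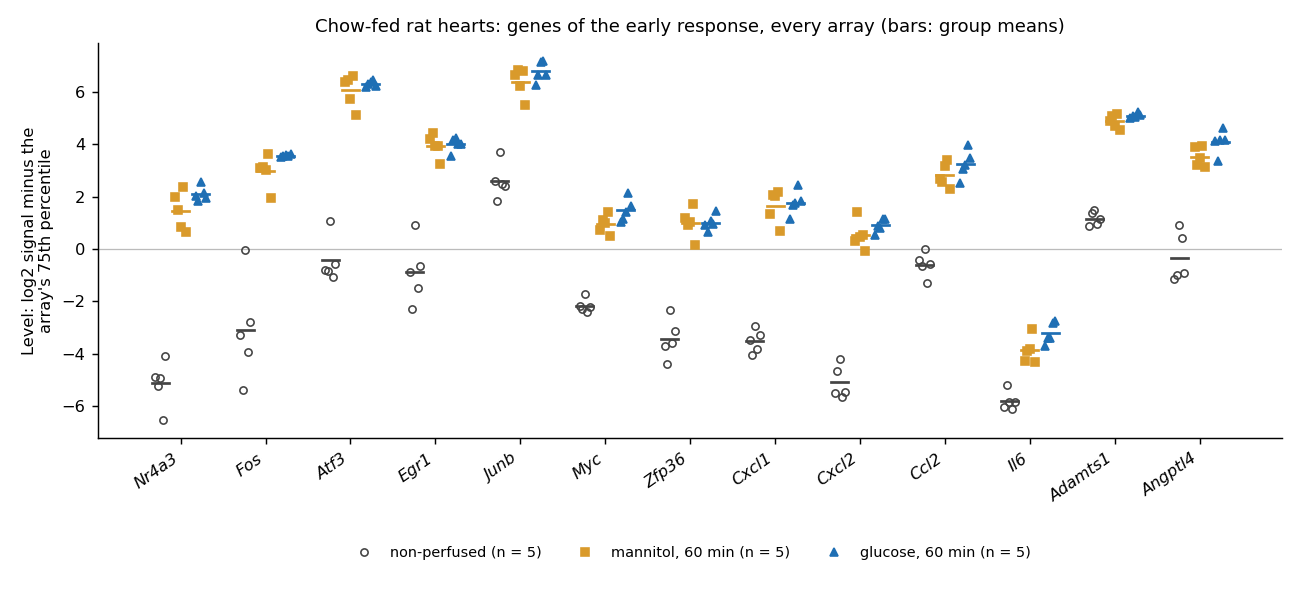
Level of 13 genes in every chow heart (log2 signal minus the array's 75th percentile, vertical axis) for the non-perfused (open circles), mannitol-perfused (squares) and glucose-perfused hearts (triangles), with bars for the group means of 5 arrays. The glucose-perfused hearts lie above the non-perfused hearts for every gene shown, and the non-perfused hearts are spread widely for Fos, from -5.40 to -0.05.

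Genes that limit the early response rose as well. Zfp36, whose protein tristetraprolin binds AU-rich elements and destroys cytokine mRNAs, ranged from -4.40 to -2.32 without perfusion and from 0.66 to 1.44 with it, and rose by 4.44 ± 0.32 (SE, log2, 21.7-fold, adjusted p = 1.02e-10). Of 14 tested factors of mRNA decay and growth arrest, 11 rose, including Btg2 by 3.74, a recruiter of the deadenylase, Zc3h12a by 2.43, an endonuclease for inflammatory mRNAs, and Tob1 by 0.93. The only member that fell, Cnot8, a deadenylase subunit, changed by -0.21, and this call was lost without non-perfused replicate 1, 3 or 5 or glucose replicate 2, 4 or 5 alone (adjusted p 0.0509 to 0.112). Among 17 feedback inhibitors of MAP kinases and receptor tyrosine kinases 9 rose and none fell: Errfi1 by 2.43, which blocks the EGF receptor, Dusp2 by 2.23, Dusp1 by 2.10 and Dusp6 by 0.74, phosphatases of MAP kinases, and Spry4 by 1.75 are examples.

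Of 11 NF-kappaB subunits and inhibitors 6 rose. The inhibitor genes Nfkbie by 1.61 and Nfkbia by 0.75, the co-regulator Bcl3 by 1.99 and the ubiquitin ligase Birc3 by 1.92 were among them. Socs3, the feedback inhibitor of cytokine receptors that signal through STAT3, ranged from -2.99 to -2.37 and from -0.51 to 0.67, without overlap, and rose by 2.67 ± 0.24 (SE, log2, 6.37-fold, adjusted p = 5.74e-09). Of the 23 tested targets of cAMP and CREB, 13 rose and none fell, a list that shares the NR4A genes with the immediate-early list. Its other members included Sik1 by 2.75, a kinase that restrains CREB co-activators, and Crem by 1.13.

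Chemokines that draw neutrophils and monocytes rose steeply in hearts perfused without blood. Cxcl2 stood at -5.51, -4.65, -4.20, -5.65 and -5.46 in non-perfused replicates 1 to 5 and at 0.55, 0.89, 0.81, 1.14 and 1.13 in glucose-perfused replicates 1 to 5. No array of one group reached the other, and Cxcl2 rose by 6.0 ± 0.46 (SE, log2, 63.8-fold, adjusted p = 2e-10). Cxcl1, the neighbouring gene with the same kind of NF-kappaB site, rose by 5.28 ± 0.39 (SE, log2, 39.0-fold, adjusted p = 1.32e-10). Ccl2 stood at -0.43, -0.67, -0.02, -1.30 and -0.56 in non-perfused replicates 1 to 5 and at 2.53, 3.07, 3.22, 3.97 and 3.46 in glucose-perfused replicates 1 to 5. The monocyte attractant Ccl2 rose by 3.85 ± 0.31 (SE, log2, 14.4-fold, adjusted p = 3.93e-10), and its neighbour Ccl7 rose by 4.02 ± 0.31 (SE, log2, 16.2-fold, adjusted p = 2.06e-10). Of 27 chemokines tested 9 rose, with Ccl3 by 3.69, Ccl4 by 2.91 and Cxcl10 by 1.96 as further examples, and 1 fell, Ccl27, by 0.38, a call lost without non-perfused replicate 1, 2, 3 or 4 or glucose replicate 1, 2, 4 or 5 alone (adjusted p 0.0603 to 0.145).

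Of 20 interleukin and TNF family genes 6 rose and 1 fell. Il6 stood at -6.03, -5.20, -5.86, -6.14 and -5.86 in non-perfused replicates 1 to 5 and at -3.71, -3.42, -3.40, -2.82 and -2.74 in glucose-perfused replicates 1 to 5. Il6, the main inducer of STAT3 signalling, was well above background in only 2 of the 5 non-perfused hearts and in all 5 perfused ones, and rose by 2.60 ± 0.31 (SE, log2, 6.07-fold, adjusted p = 6.92e-07). The pyrogenic cytokine Il1b rose by 3.16 ± 0.41 (SE, log2, 8.95-fold, adjusted p = 3.11e-06) and Tnf rose by 2.55 ± 0.26 (SE, log2, 5.86-fold, adjusted p = 4.51e-08). Il16, a T-cell attractant, fell by 1.53 ± 0.24 (SE, log2, 2.89-fold, adjusted p = 3.49e-05). Of 26 cytokine receptors 7 rose, including Tnfrsf12a by 1.93, the receptor for TWEAK, Il4r by 1.27 and Tnfrsf1b by 1.05. Of 26 interferon-induced genes 4 rose, among them Irf1 by 1.35 and Ifit3 by 1.60, and the list's median change was -0.06.

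Icam1, an endothelial adhesion molecule for leukocytes, ranged from -1.16 to -0.54 without perfusion and from 1.13 to 1.96 with it, and rose by 2.42 ± 0.18 (SE, log2, 5.34-fold, adjusted p = 1.03e-10). Vcam1 rose by 1.53 ± 0.28 (SE, log2, 2.90-fold, adjusted p = 0.000303), although non-perfused replicate 1 (at 0.65) lay within the perfused range of 0.50 to 1.85. In all 4 of 9 tested adhesion molecules rose, and 2 did so without non-perfused replicate 3 or without perfused replicate 2. Of 17 genes of clotting and fibrinolysis 8 rose and none fell. Plat, the tissue plasminogen activator, rose by 1.31 ± 0.11 (SE, log2, 2.48-fold, adjusted p = 2.22e-09). Other rises were Tfpi2 by 3.42, Plaur by 1.76 and Procr by 1.66.

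The tight junction gene Cldn5 was the only 1 of 11 endothelial cell markers called, with 0.10, 0.29, 0.36, 0.02 and 0.50 in the non-perfused and 2.43, 2.29, 2.36, 2.21 and 2.34 in the perfused hearts. Cldn5 rose by 2.07 ± 0.13 (SE, log2, 4.21-fold, adjusted p = 5.81e-12). Apold1, an early-response gene of endothelial cells, rose by 4.06 ± 0.31 (SE, log2, 16.7-fold, adjusted p = 2.33e-10), and of 28 angiogenic genes 8 rose, including Vegfa by 0.90, its receptor Flt1 by 0.84, Pgf by 1.16 and the Notch ligand Dll4 by 1.79. The only member that fell, Angpt1, changed by -0.77, a call lost without non-perfused replicate 1 alone (adjusted p = 0.0788). Among 28 genes of vascular tone 4 rose and 2 fell (all genes 5.46% and 4.02%). The endothelial nitric oxide synthase gene Nos3 rose by 0.66 ± 0.08 (SE, log2, 1.58-fold, adjusted p = 1.1e-06), and the apelin receptor gene Aplnr fell by 0.81 ± 0.14 (SE, log2, 1.75-fold, adjusted p = 0.000239). The endothelin gene Edn1 rose by 1.05, a call lost without non-perfused replicate 5 alone (adjusted p = 0.0612).

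Matrix genes changed through a few large rises. Adamts1, a protease that cleaves versican and aggrecan, stood at 0.88, 1.36, 1.47, 0.95 and 1.13 in non-perfused replicates 1 to 5 and at 5.01, 5.07, 5.03, 5.25 and 5.12 in glucose-perfused replicates 1 to 5. Adamts1 rose by 3.94 ± 0.19 (SE, log2, 15.3-fold, adjusted p = 3.83e-14). Its relative Adamts4, well above background in only 1 of the 5 non-perfused hearts, rose by 2.48 ± 0.30 (SE, log2, 5.59-fold, adjusted p = 9.3e-07) and by 0.97 under normexp, and the inhibitor Timp1 rose by 1.03 ± 0.21 (SE, log2, 2.04-fold, adjusted p = 0.00125), and these were the 3 called of 17 matrix proteases and inhibitors (4 rose and 1 fell without non-perfused replicate 2). Of 25 matrix and matricellular genes 6 rose, with Ccn1 by 3.60, Ccn2 by 1.75 and Has1 by 1.70 among them. Thbs1 was not well above background in any non-perfused heart and was at least 7.01-fold higher after perfusion (adjusted p = 0.000187). Growth factor genes that rose were the EGF family ligands Hbegf (1.78) and Areg (2.26), the TGF-beta family member Gdf15 (3.92), and Bmp2 (1.04). Of 21 targets of the YAP and serum response factors 9 rose and none fell, such as Zyx by 0.74 and Actg1, the cytoskeletal gamma-actin, by 1.27. The other probe of Actg1 gave 0.41. Actb, the cytoskeletal beta-actin, changed by 0.07 ± 0.09 (SE, log2, adjusted p = 0.725).

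Of 24 genes of the integrated stress response, which lowers translation and raises ATF4, 9 rose: Atf4 itself ranged from 3.39 to 3.76 and from 5.39 to 5.67, without overlap, and rose by 1.89 ± 0.09 (SE, log2, 3.70-fold, adjusted p = 3.83e-14). Its targets Ddit3 (CHOP) and Ppp1r15a (GADD34) rose by 2.19 ± 0.12 (SE, log2, 4.56-fold, adjusted p = 4.88e-13) and by 2.53 ± 0.14 (SE, log2). The member that fell, Ddit4, an inhibitor of mTORC1, changed by -0.45, and its call was lost without non-perfused replicate 1, 2, 3, 4 or 5 or glucose replicate 1, 3 or 4 alone (adjusted p 0.0542 to 0.0967). In the unfolded protein response of the endoplasmic reticulum none of 22 genes rose, and 1 fell, Dnajb11, by 0.19, lost without non-perfused replicate 1, 3, 4 or 5 or glucose replicate 2, 3 or 4 alone (adjusted p 0.0653 to 0.127), while 2 fell without non-perfused replicate 2. That list's median change was -0.06.

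Of 34 heat shock proteins and co-chaperones 7 rose and 2 fell. The rises were led by Dnajb4 by 1.37 (adjusted p = 4.24e-09), Hspa2 by 1.20 (adjusted p = 5.22e-06), Hspb1 by 1.16 (adjusted p = 4.52e-05) and Dnaja1 by 1.14 (adjusted p = 5.66e-06), and without perfused replicate 4 the counts were 5 and 0. Among 36 NRF2 targets and antioxidant genes 9 rose and none fell. Osgin1 rose by 2.83 ± 0.22 (SE, log2, 7.11-fold, adjusted p = 3.81e-10), and the sulfiredoxin gene Srxn1 rose by 1.74 ± 0.24 (SE, log2, 3.34-fold, adjusted p = 5.58e-06). Hmox1 stood at -0.84, -1.03, -0.58, -1.54 and -0.81 in non-perfused replicates 1 to 5 and at -0.46, 0.59, 0.30, 1.57 and -0.10 in glucose-perfused replicates 1 to 5. The heme oxygenase gene Hmox1 rose by 1.34 ± 0.28 (SE, log2, 2.54-fold, adjusted p = 0.00174), with perfused replicate 4 highest and perfused replicate 1 close to the non-perfused range. The metallothionein genes Mt1 (1.80) and Mt2A (1.98), which bind zinc, rose, and they were the only 2 called of 10 genes of zinc handling.

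Of 21 p53 targets and growth arrest genes 11 rose and 1, Zmat3 (-0.41, but -0.05 and no call over the mean of its probes), fell. The rises were led by Plk3 by 3.76, Gadd45g by 3.07 and Gadd45b by 2.70. Among 32 genes of survival and cell death 6 rose and 2 fell. The rises held both the survival gene Mcl1 (2.28) and Ripk3 (2.87), the kinase of necroptosis. Of 27 hypoxia targets 4 rose, among them Vegfa, named above.

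**Figure D2:**
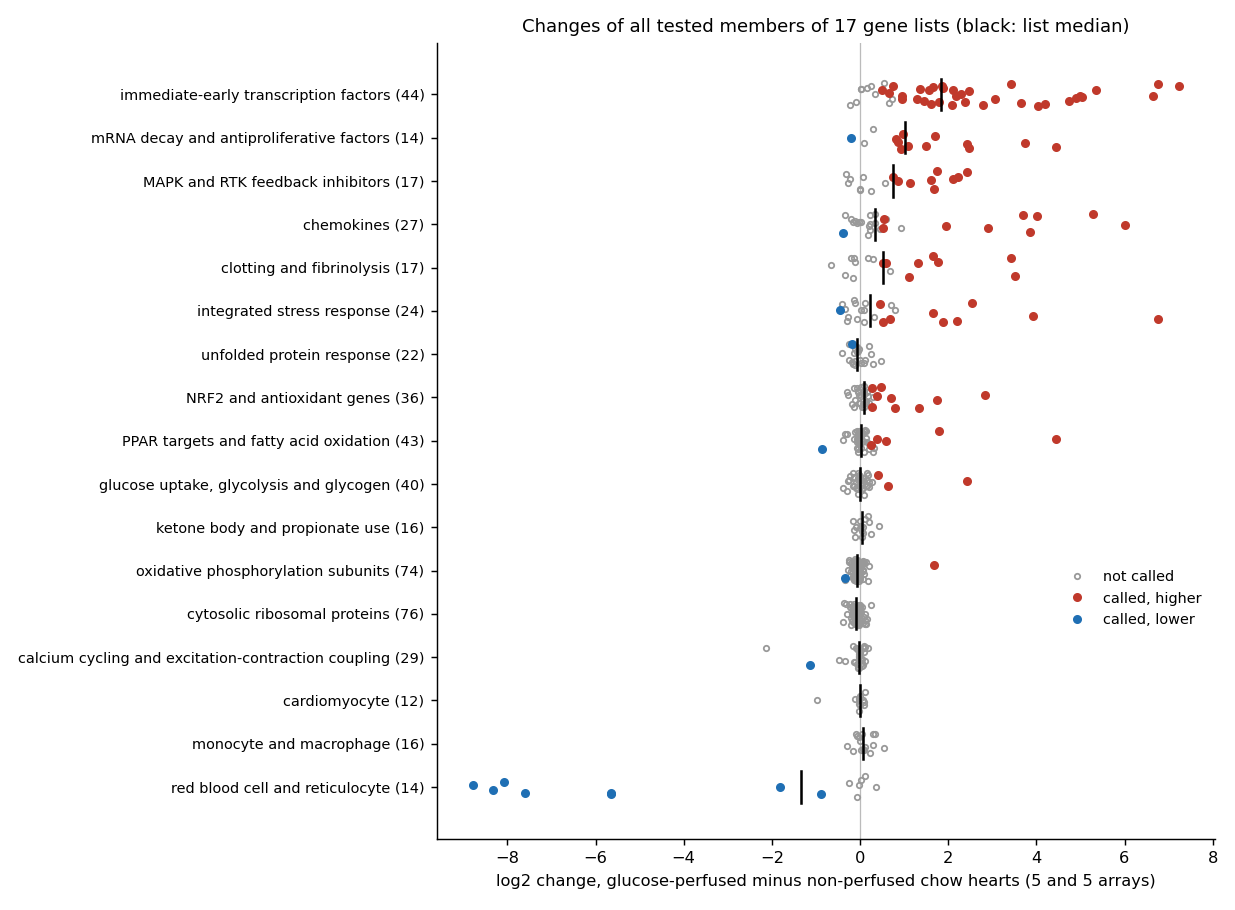
Log2 change between glucose-perfused and non-perfused chow hearts for every tested member of 17 gene lists (1 row per list, number of members in brackets), with called genes in colour and the list median as a black line. Members of the early-response lists lie far to the right, those of the ribosomal and ketone lists lie close to 0, as do those of oxidative phosphorylation except Uqcrq at 1.68, and red blood cell genes reach -8.79.

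Of 40 genes of glucose uptake, glycolysis and glycogen 3 rose and none fell, near the share over all genes (5.46% higher), with a list median of 0.0. Slc2a3 stood at -4.60, -4.53, -4.98, -5.01 and -4.96 in non-perfused replicates 1 to 5 and at -2.47, -2.41, -2.77, -2.01 and -2.30 in glucose-perfused replicates 1 to 5. The neuronal-type glucose transporter Slc2a3 rose by 2.42 ± 0.29 (SE, log2, 5.37-fold, adjusted p = 5.72e-07), and by 1.15 under normexp. The lactate exporter Slc16a3 rose by 0.64 ± 0.10 (SE, log2, 1.56-fold, adjusted p = 4.58e-05). Hexokinase 2 (Hk2) rose by 0.40, a call lost without non-perfused replicate 1, 3 or 4 or glucose replicate 1, 2 or 4 alone (adjusted p 0.0621 to 0.0862). The insulin-sensitive transporter Slc2a4 changed by -0.05 ± 0.08 (SE, log2, adjusted p = 0.807), the ubiquitous transporter Slc2a1 by 0.06 ± 0.17 (SE, log2, adjusted p = 0.905) and Gapdh by -0.05 ± 0.13 (SE, log2, adjusted p = 0.909). The sign of the Slc2a1 and Gapdh values turned when single arrays were left out.

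The pyruvate dehydrogenase kinase Pdk4, which spares glucose, stood at -2.39, -2.03, -1.84, -1.65 and -1.65 without perfusion and at 0.28, -0.40, -0.14, -0.09 and -0.24 with it. The groups did not overlap, and Pdk4 rose by 1.80 ± 0.23 (SE, log2, 3.48-fold, adjusted p = 2e-06). The phosphatase Pdp2, which works against the kinases, rose by 0.78 ± 0.15 (SE, log2, 1.72-fold, adjusted p = 0.00087), and these were the 2 called of 14 genes of the complex and its regulators. Of 43 PPAR targets and genes of fatty acid oxidation 5 rose and 1 fell, and 3 rose and none fell without non-perfused replicate 3 or 4 or without perfused replicate 1. Angptl4 stood at -1.15, -1.0, 0.90, 0.43 and -0.93 in non-perfused replicates 1 to 5 and at 4.12, 3.37, 4.17, 4.64 and 4.17 in glucose-perfused replicates 1 to 5. Angptl4, a secreted inhibitor of lipoprotein lipase, rose by 4.44 ± 0.51 (SE, log2, 21.7-fold, adjusted p = 3.54e-07), far ahead of the other members. Ucp2, a mitochondrial carrier, changed by -0.86, a call lost without non-perfused replicate 3 or 4 or glucose replicate 1 alone (adjusted p 0.0551 to 0.0656), and Ucp3 by -0.34 ± 0.43 (SE, log2, adjusted p = 0.75). The co-activator gene Ppargc1a changed by 0.09 ± 0.10 (SE, log2, adjusted p = 0.698).

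Lipid storage genes gave small rises: of 22 genes 4 rose, among them Plin2 by 0.68 (adjusted p = 1.54e-05), a coat protein of lipid droplets, and Lipe by 0.98 (adjusted p = 8.7e-05), the hormone-sensitive lipase, and 2 rose without non-perfused replicate 1 or without perfused replicate 1. None of 16 genes for the use of ketone bodies and propionate was called (9.48% of all genes were), with changes from -0.16 to 0.43.

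Txnip, the thioredoxin-interacting protein whose transcription follows glucose through MondoA, is a widely used readout of glucose sensing. Txnip stood at 2.77, 3.45, 4.01, 3.63 and 3.48 in non-perfused replicates 1 to 5 and at 4.26, 4.26, 3.75, 4.06 and 4.14 in glucose-perfused replicates 1 to 5. Non-perfused replicate 3 lay inside the perfused range, and within slides the difference ran from -0.27 to 1.08. Txnip rose by 0.63 ± 0.19 (SE, log2, 1.54-fold, adjusted p = 0.0349), but the call was lost without non-perfused replicate 1, 2 or 5 or glucose replicate 1, 2, 4 or 5 alone (adjusted p 0.0584 to 0.139). Against the same non-perfused hearts the mannitol-perfused hearts changed by -0.22 (adjusted p = 0.61). Its relative Arrdc3 rose by 1.33 ± 0.24 (SE, log2, 2.52-fold, adjusted p = 0.000293), with 0.92 under mannitol, and the pair were the only calls among 14 targets of ChREBP and MondoA, 1 of them without 7 of the 10 single arrays. Uap1, which makes the sugar nucleotide for O-GlcNAc, was the 1 gene called of 12 in the hexosamine list (2 without perfused replicate 5) and rose by 1.06 ± 0.18 (SE, log2, 2.08-fold, adjusted p = 9.74e-05).

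Genes of insulin action included one of the largest metabolic rises. Irs2 stood at -0.72, -1.20, -0.76, -0.62 and -0.74 in non-perfused replicates 1 to 5 and at 2.84, 2.68, 2.90, 2.83 and 2.99 in glucose-perfused replicates 1 to 5. Irs2, a docking protein of the insulin receptor, rose by 3.65 ± 0.25 (SE, log2, 12.6-fold, adjusted p = 2.44e-11), and perfused hearts were far above all non-perfused ones. Of 30 tested genes of insulin signalling and FOXO targets 4 rose and 2 fell, the falls being Igf1, which fell by 0.52 ± 0.13 (SE, log2, 1.43-fold, adjusted p = 0.00933), and Igf2, by 0.99, a call lost without non-perfused replicate 1 or glucose replicate 2, 4 or 5 alone (adjusted p 0.054 to 0.116). Non-perfused replicate 1 had the highest level of both growth factor genes. Of 23 glucocorticoid-induced genes 10 rose and 1, Ddit4, fell. The rises included genes already named (Errfi1, Dusp1, Angptl4, Mt1, Pdk4), and Sgk1 rose by 1.65 ± 0.16 (SE, log2, 3.15-fold, adjusted p = 3.03e-08). In sterol and fatty acid synthesis 3 of 27 rose and 1 fell (all genes 5.46% and 4.02%), with Insig1 by 1.33 among the rises. Slc25a25, a calcium-regulated mitochondrial carrier for ATP-magnesium, rose by 2.34 ± 0.15 (SE, log2, 5.05-fold, adjusted p = 8.6e-12). Of 22 carriers of amino acids and cations 6 rose, with the glutamine carrier Slc38a2 by 1.1 the largest change among them.

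**Figure D3:**
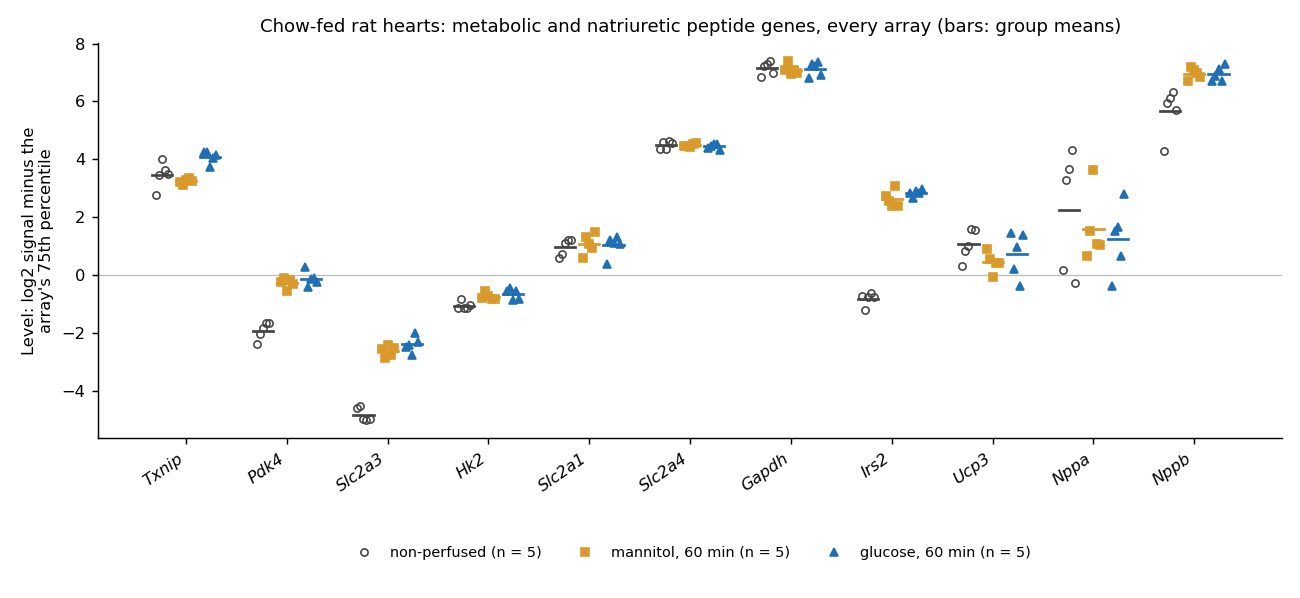
Level of 11 metabolic and natriuretic peptide genes in every chow heart (log2 signal minus the array's 75th percentile, vertical axis), with symbols for the 3 groups and bars for their means of 5 arrays. Pdk4, Slc2a3 and Irs2 separate perfused from non-perfused hearts, Slc2a1, Slc2a4 and Gapdh overlap in all groups, and Txnip lies higher with glucose (from 3.75 to 4.26) than with mannitol (from 3.13 to 3.35).

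Of 18 clock genes 5 rose. The repressor genes Bhlhe40 (1.57), Nfil3 (1.20) and Cry2 (0.64) passed, and so did Ciart (2.93), whose call was lost without non-perfused replicate 3 alone (adjusted p = 0.0513). Per1, a light- and hormone-induced clock gene, changed by 0.47 ± 0.16 (SE, log2, adjusted p = 0.0572), Nr1d1 (REV-ERB alpha) by 0.46 ± 0.25 (SE, log2, adjusted p = 0.329) and the output gene Dbp by 0.83 ± 0.55 (SE, log2, adjusted p = 0.449). Per1 was called with slide as a fixed (adjusted p = 0.0222) or random block (adjusted p = 0.0208). It was also called without non-perfused replicate 3 (adjusted p = 0.0171) or glucose replicate 5 (adjusted p = 0.0217) alone. Non-perfused replicate 1 stood apart for several clock genes, with Dbp at 5.17 against 2.33 to 2.85 in the other 4 and Ciart at -1.80 against -6.69 to -4.94. The hour of collection was not used here.

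The counts for genes of the contractile cell are to be read against the 9.48% of all genes tested that were called. Of 12 cardiomyocyte markers none was, with changes from -0.98 to 0.11, and their summed linear level ran from 4415 to 6370 in the non-perfused and from 4106 to 5954 in the perfused hearts. Of 28 sarcomere and Z-disc genes 2 rose, the actin cross-linker Flnc (0.99) and Lmcd1 (0.61), and of 29 calcium-cycling genes none rose and 1 fell, Cacna1h, by 1.14, a call lost without non-perfused replicate 2, 3 or 4 or glucose replicate 2 or 4 alone (adjusted p 0.0579 to 0.104). Without non-perfused replicate 5, 2 genes of this list fell. Among 32 potassium and sodium channel genes 1 rose and 1 fell (all genes 5.46% and 4.02%). Kcnip2 rose by 0.40 (adjusted p = 0.0129) and Kcne3 fell by 1.29 (adjusted p = 0.000937). Of 13 genes of gap junctions and conduction 2 rose and 1 fell: the connexin 40 gene Gja5 fell by 1.35 ± 0.22 (SE, log2, 2.55-fold, adjusted p = 7.17e-05), while the arterial connexin 37 gene Gja4 rose by 0.80 ± 0.10 (SE, log2, 1.75-fold, adjusted p = 1.44e-06). Gja5 also marks atrial muscle, and 6 of the 7 tested atrial markers had values below 0 (list median -0.98). Those without a call included Sln -2.13 ± 1.0 (SE, log2, adjusted p = 0.22), Myl7 -1.73 ± 0.95 (SE, log2, adjusted p = 0.319), Dkk3 -0.60 ± 0.21 (SE, log2, adjusted p = 0.0727) and Nppa -0.98. The summed level of the 9 atrial markers ran from 211 to 226 without and from 196 to 215 with perfusion. That sum leans on its brightest member, Myl4, with means of 7.6 and 7.59, and says little about the dimmer markers. The part of atrial tissue in the values of Gja5 and Nppa was not tested.

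The natriuretic peptide genes are classical markers of wall stretch. Nppb stood at 4.29, 5.94, 6.12, 6.33 and 5.71 in non-perfused replicates 1 to 5 and at 6.71, 6.87, 7.11, 6.72 and 7.30 in glucose-perfused replicates 1 to 5. Nppb rose by 1.27 ± 0.33 (SE, log2, 2.41-fold, adjusted p = 0.0125), with the call lost without non-perfused replicate 1 alone (adjusted p = 0.053). Nppa stood at 0.19, 3.30, 3.67, 4.31 and -0.28 in non-perfused replicates 1 to 5 and at -0.38, 1.52, 1.67, 0.66 and 2.81 in glucose-perfused replicates 1 to 5. Nppa, which is strongest in the atria, was spread over more than 4 log2 units within the non-perfused group and changed by -0.98 ± 0.78 (SE, log2, adjusted p = 0.549), or by -1.61 without non-perfused replicate 5. A difference between Nppb and Nppa was not tested.

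None of 76 cytosolic ribosomal protein genes was called, with a median change of -0.09. Of 74 subunits of oxidative phosphorylation Uqcrq rose and Atp5pf fell. Uqcrq, a complex III subunit, rose by 1.68 ± 0.19 (SE, log2, 3.20-fold, adjusted p = 3.53e-07), the only member of its list past 2-fold. Atp5pf, of the ATP synthase, changed by -0.33, lost without non-perfused replicate 2 or glucose replicate 2 or 4 alone (adjusted p 0.061 to 0.075). Among 64 mitochondrial ribosomal protein genes 6 fell and none rose, led by Mrpl34 by 0.31 (adjusted p = 0.00194), and 3 fell without non-perfused replicate 2 or without perfused replicate 1. Of 28 splicing factors and kinases 6 rose, Clk1 by 1.23 and Srsf2 by 0.72 among them, and 6 of 21 chromatin regulators rose, with Arid5a by 1.79 and the histone demethylase Kdm6b by 1.20. Of 31 genes of proliferation 2 rose (Cdk2 by 0.97 and Pcna by 0.94) and 6 fell, with Ube2c by 1.06 as the largest fall, and 3 fell without non-perfused replicate 3.

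The largest falls belonged to cells of the blood. In bulk tissue fewer cells of a type and less RNA per cell cannot be told apart, and here the perfused hearts had been flushed with buffer. Hbb, a beta-globin gene, stood at 7.30, 7.51, 7.55, 7.68 and 7.61 in non-perfused replicates 1 to 5 and at -0.46, -2.12, -0.84, 2.03 and -1.31 in glucose-perfused replicates 1 to 5. Every non-perfused heart lay more than 5 log2 units above every perfused one, and Hbb fell by 8.07 ± 0.95 (SE, log2, 268-fold, adjusted p = 5.54e-07). Without perfused replicate 4 the change was -8.71 for Hbb, -9.58 for Hbb-bs, -9.08 for Hbe2 and -8.19 for Hbb-b1. Perfused replicate 4 kept the most globin signal in each of the 6 globin genes named here. The globin genes are near-identical copies whose probes may share signal, so Hbb-bs (-8.79), Hbe2 (-8.33), Hbb-b1 (-7.59) and Hba-a1 (-5.66) may not be separate measurements. Hba-a3 was not well above background in any perfused heart and was at least 115-fold lower (adjusted p = 6.74e-06). The 9 globin probes together gave 0.525% to 0.772% of an array's signal in the non-perfused hearts and 0.00457% to 0.0201% in the perfused ones.

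Alas2, which starts heme synthesis in red cell precursors, stood at 0.10, 0.45, 0.57, 1.21 and 0.51 and at -5.33, -5.34, -5.01, -4.71 and -5.07, and fell by 5.66 ± 0.34 (SE, log2, 50.5-fold, adjusted p = 2.89e-12). Of 14 red cell genes 8 fell and none rose, with Ahsp by 1.81, the chaperone of alpha-globin, and Bpgm by 0.89 as the smaller falls. The summed linear level of the 18 red cell markers on the array ran from 610 to 934 without perfusion, from 12.0 to 30.5 with glucose and from 12.8 to 108 with mannitol. Add2, a red cell membrane skeleton gene, was at least 5.96-fold lower, since no perfused heart had it well above background. Its call was lost under normexp (-0.79, adjusted p = 0.155) and with the authors' deposited values (adjusted p = 0.249), and the mean of its probes gave -1.81.

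Neutrophil genes fell through a few members. S100a9 stood at -2.38, -2.88, -2.18, -3.09 and -2.72 in non-perfused replicates 1 to 5 and at -6.11, -6.67, -6.76, -5.76 and -6.58 in glucose-perfused replicates 1 to 5. S100a9, a subunit of calprotectin, was not well above background in any perfused heart and was at least 12.8-fold lower (adjusted p = 2.29e-06), as was S100a8, by at least 6.08-fold (adjusted p = 0.00223). Of 8 neutrophil markers tested 3 fell, Elane, Mmp8 and Mmp9 were above background on none of the 10 arrays, and the summed level of all 15 markers overlapped between the groups (0.75 to 1.16 and 0.80 to 1.18). That sum leans on its brightest member, Lcn2, with a mean of -1.52 without and -0.97 with perfusion. It therefore says little about the dimmer S100a8 and S100a9. The remaining called marker, Fcnb, changed by -1.15, a call lost without non-perfused replicate 1 or glucose replicate 3 or 4 alone (adjusted p 0.0506 to 0.0717). Of 7 platelet genes 3 fell, led by Clec1b, at least 6.36-fold lower (adjusted p = 0.000458), with Gp1bb by 0.43, and Pf4 by 0.45, a call lost without non-perfused replicate 1 or 3 or glucose replicate 1 alone (adjusted p 0.0544 to 0.0605).

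Of 4 B cell genes 2 fell. Cd79b was at least 3.03-fold lower, a call lost without glucose replicate 5 alone (adjusted p = 0.0506). Cd52, a surface protein of lymphocytes and other leukocytes, was at least 14.7-fold lower (adjusted p = 5.77e-05). Of 15 T cell and natural killer cell genes 6 rose and none fell, with Gzmb (1.34) and Cd2 (1.22) the largest. Both calls were lost with the authors' deposited values (adjusted p = 0.0962 and 0.567), and Cd2 stood at 0.47 under normexp. Only 3 rose without non-perfused replicate 2 or 3 or without perfused replicate 3 or 5. Their summed level ran from 2.42 to 3.37 without and from 3.51 to 4.66 with perfusion. That sum leans on its brightest members, Nkg7 (means of -0.53 without and 0.12 with perfusion) and Cd3d (-0.18 in both). Of the 15 genes tested, 13 had changes above 0 and 2 below. The T cell markers Cd8b (-2.38 and -2.48) and Cd4 (-3.64 and -3.50) differed little. None of 16 monocyte and macrophage markers was called, and their summed level overlapped (50.7 to 62.6 and 49.4 to 58.8). The part of blood and immune cells in the rises of chemokine genes was not tested.

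Among the nerve and Schwann cell markers Npy fell the most. Npy, a neuropeptide of sympathetic nerve endings, stood at -0.26, -0.32, 0.04, 0.10 and -0.64 without perfusion and at -4.50, -4.89, -4.85, -3.18 and -4.57 with it, and fell by 4.18 ± 0.41 (SE, log2, 18.2-fold, adjusted p = 1.93e-08). It was the only 1 of 12 tested nerve and Schwann cell markers called, and Snap25, Chga and Chgb were above background on none of the 10 arrays. Of the sympathetic markers, Th had means of 1.1 without and 1.03 with perfusion, Dbh -1.72 and -1.65, and Slc6a2 -2.11 and -2.02. Perfused replicate 4 kept the most Npy signal, as it did for the globin genes, but this rank is not particular to them. Among the perfused hearts, replicate 4 was also the highest for 41 of the 95 genes that fell at least 2-fold. The same held for 157 of the 294 genes that rose as much. Its array had the lowest share of probes well above background in its group (52.4%), and only 2 perfused hearts had Npy well above background. The part of blood cells in the fall of Npy was not tested. Tas2r120, named for a bitter taste receptor, was at least 6.07-fold lower (adjusted p = 0.000298). The summed levels of endothelial markers (38.9 to 49.2 and 44.9 to 56.3), fibroblast markers (92.3 to 129 and 98.2 to 120), and smooth muscle and pericyte markers (40.1 to 47.4 and 41.2 to 46.5) overlapped between non-perfused and perfused hearts. Of 6 epicardial and mesothelial markers Wt1 rose (1.0), while others had values below 0 without a call, Msln at -2.91 ± 1.13 (SE, log2, adjusted p = 0.116), Krt19 at -1.39 ± 1.12 (SE, log2, adjusted p = 0.556), Krt18 at -1.11 ± 0.84 (SE, log2, adjusted p = 0.525) and Bnc1 at -0.83, and the list's median change was -0.97. Among 9 fibroblast markers those that rose were Lum (0.55) and Tcf21 (0.83), the last lost without non-perfused replicate 2, 4 or 5 or glucose replicate 2 or 4 alone (adjusted p 0.0558 to 0.082). Of 8 mast cell genes Cma1 fell by 0.72, lost without non-perfused replicate 1, 2, 3 or 5 or glucose replicate 1, 3 or 4 alone (adjusted p 0.0567 to 0.105). No adipocyte marker was called, and of 7 atrial markers the connexin gene Gja5 fell. Some of these small counts became 2 when 1 array was left out: the endothelial list without perfused replicate 4, the epicardial list without non-perfused replicate 4 or perfused replicate 2, and the atrial list without non-perfused replicate 5.

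**Figure D4:**
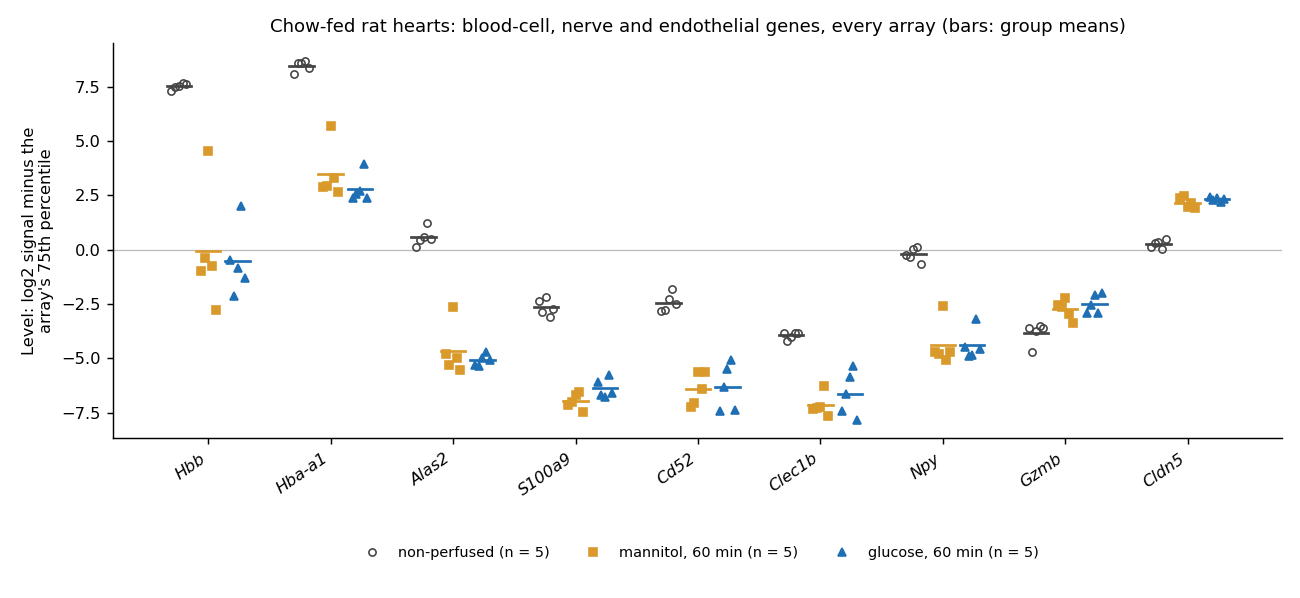
Level of 9 blood-cell, nerve and endothelial genes in every chow heart (log2 signal minus the array's 75th percentile, vertical axis), with symbols for the 3 groups and bars for their means of 5 arrays. Globin genes, Alas2, S100a9, Cd52 and Npy lie far lower in both perfused groups than in non-perfused hearts, whereas Gzmb and Cldn5 lie higher.

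Hearts perfused with mannitol in place of glucose were the osmotic control. Against the same 5 non-perfused hearts, 1557 genes (8.49%) were called with mannitol, 886 (4.83%) higher and 671 (3.66%) lower. The changes of the leading genes were close in size: Nr4a3 7.24 with glucose and 6.60 with mannitol, Atf3 6.76 and 6.50, Fos 6.65 and 6.05, Cxcl2 6.0 and 5.62, and Hbb -8.07 and -7.59. Both comparisons use the same non-perfused arrays, so such pairs are not independent.

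In the direct test of glucose against mannitol, limma called none of the 18345 genes, with the smallest adjusted p at 0.999 and 716 genes at an unadjusted p under 0.05. The 95% interval of a difference had a median half-width of 0.3 log2 units, before any adjustment, and larger differences also went without a call. The 5 genes of smallest unadjusted p were S1pr1 (0.42), Txnip (0.85), Prpf38a (0.29), Litaf (0.41) and Msto1 (0.36). Txnip was 1 of them: its level ran from 3.13 to 3.35 with mannitol and from 3.75 to 4.26 with glucose, a difference of 0.85 (95% interval 0.46 to 1.24), with an unadjusted p of 0.000146 that did not pass adjustment. Pdk4 differed by 0.16 (95% interval -0.31 to 0.64), Angptl4 by 0.57 (95% interval -0.48 to 1.62), Hk2 by 0.09 (95% interval -0.15 to 0.34) and Fos by 0.60 (95% interval -0.78 to 1.99). For Egr4, which is dim, the difference was 1.44 (95% interval 0.03 to 2.84). An adjusted p above the threshold does not show that the groups act alike, and in chow hearts glucose and slide row cannot be told apart in this test.

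**Figure D5:**
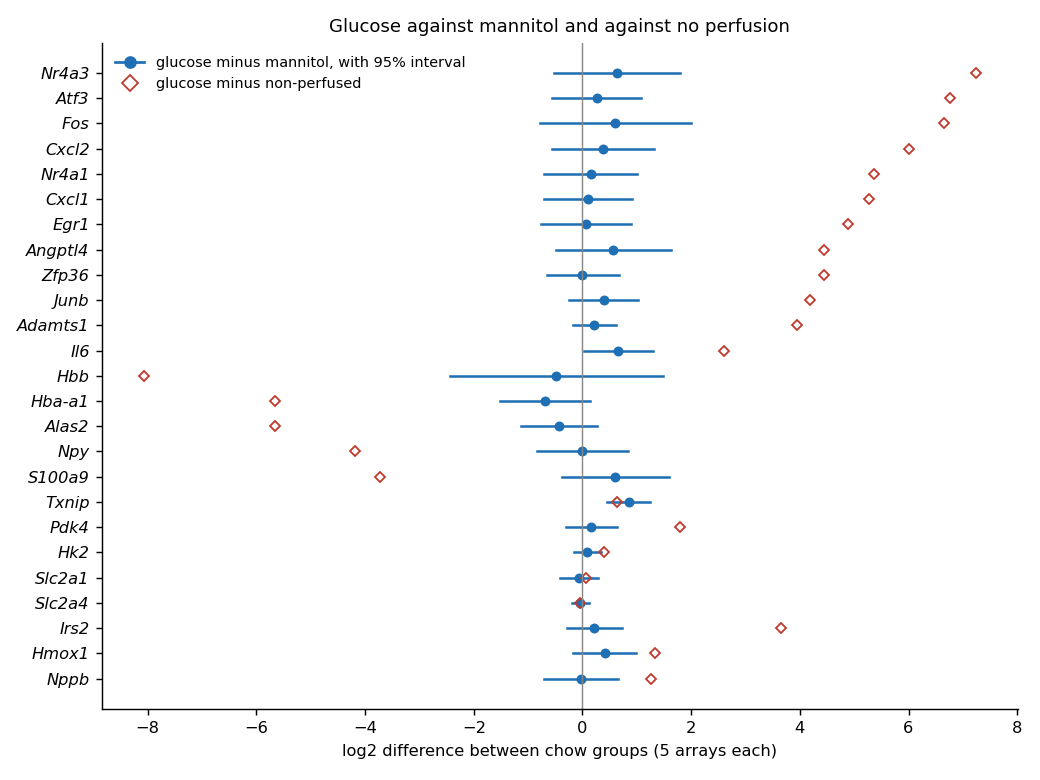
Log2 difference between glucose- and mannitol-perfused chow hearts with its 95% interval (circles and lines, 5 arrays each) for 25 genes, beside the change of the same genes between glucose-perfused and non-perfused hearts (diamonds). The diamonds reach 7.24 and -8.07, while the circles lie between -0.69 and 0.85.

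The response to glucose perfusion was also set against that of hearts from sucrose-fed rats, which have their own non-perfused controls. There 1593 genes (8.68%) were called, 1016 (5.54%) higher and 577 (3.15%) lower, and 1139 genes were called in both diets in the same direction, 65.5% of the chow calls and 71.5% of the sucrose calls. No gene was called in opposite directions. The test of the difference between the diets called none of the 18345 genes (limma, 481 at an unadjusted p under 0.05), with a median half-width of its 95% interval of 0.42 log2 units. The 5 genes of smallest unadjusted p, with the change in chow minus that in sucrose hearts, were Tapbp (0.49), C6 (-2.88), Nmrk1 (0.55), Cldn5 (0.62) and Tubg1 (0.32). Nr4a3 changed by 7.24 in chow and by 6.35 in sucrose hearts, Angptl4 by 4.44 and 3.39, Irs2 by 3.65 and 3.20, Txnip by 0.63 and 0.63, and Hbb by -8.07 and -8.93.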

How the data were processed

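RNA of left ventricles was measured on single-colour Agilent rat arrays, 1 array per heart. The deposited scanner files give an intensity per spot, which per the file headers is background-subtracted and detrended within each array by Agilent Feature Extraction (11.0.1.1 in the headers, 10.3 in the submitters' processing notes). The authors' deposited series table holds log2 values whose scaling between arrays is not given in the sources used here, with array medians from 7.23 to 7.24. It was used as an alternative only.

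Spots of a probe were averaged without outlier spots, and log2 intensity minus each array's 75th percentile was taken. No spot was saturated. Probes were named by transcript accession through a RefSeq table (GRCr8): 18347 of 30367 (60.4%) had 1 symbol, 12020 none. The brightest probe stood for a gene, and genes were tested where some group had 4 or more of its 5 arrays well above background (18345 of 26785 genes, with 8440 removed). All 30 arrays entered 1 limma fit (limma 3.58.1, R 4.3.3) with a mean for each of 6 groups, and p-values were adjusted by the Benjamini-Hochberg method at 0.05. A fold "at least" uses, for the group not well above background, the higher of each array's lowest signal well above background and the probe's own signal. It can equal the fitted fold, as for Add2 (5.96), and is not a lower bound under other settings. Intervals are 95%. A summed linear level adds the markers' signals relative to the array's 75th percentile, so the brightest markers weigh most.

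The groups and the gene lists were chosen with earlier results of these data known. Genes are named by rule: the 15 strongest rises and the 15 strongest falls with separate groups, up to 8 called members of each list, the 10 smallest p-values, and a set of metabolic, early-response, blood and clock genes, of which Arrdc4 and Hspa1b were not among the genes tested. Not every gene that the rule allows is reported here. On simulated data for this comparison (18345 genes, 50 changed per size), 50% of changes of 0.5 (log2) were called, 84% of 1, 94% of 2 and 100% of 4, with 3 false among 167 calls.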

Additional observations from a re-analysis of the deposited data

Results flagged for a closer look

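Single hearts stood apart from the other 4 of their group, by Dixon's test at its 95% limit for 5 samples (0.71), in 33 of 406 groups of 5 levels, 8.13% over the 203 genes described, and chance flags about 1 group in 20. The levels below are log2 signals minus the array's 75th percentile, each set against the range of the other 4 hearts. Non-perfused replicate 1 lay above the other 4 hearts of its group for Dbp (5.17 against 2.33 to 2.85). Non-perfused replicate 1 lay below the other 4 hearts of its group for Nfil3 (-1.93 against -1.20 to -0.90) and Nos3 (0.43 against 0.72 to 0.79). Non-perfused replicate 2 lay above the other 4 hearts of its group for Egr4 (-4.60 against -8.13 to -7.33), Fosl1 (-5.24 against -8.14 to -7.33), H1f4 (0.72 against -0.43 to -0.31) and Klf6 (0.44 against 0.04 to 0.13). Egr4 and Fosl1 were not well above background in any non-perfused heart, so these are background levels. The negative control spots of this array had a standard deviation of 13.9, against 2.29 to 2.91 in the other 4. Non-perfused replicate 2 lay below the other 4 hearts of its group for Gzmb (-4.69 against -3.76 to -3.51), Irs2 (-1.20 against -0.76 to -0.62) and Zc3h12a (-3.89 against -3.25 to -3.15). Non-perfused replicate 3 lay above the other 4 hearts of its group for Atf3 (1.08 against -1.06 to -0.57), Ccn1 (2.60 against 1.03 to 1.11), Egr2 (-2.57 against -5.29 to -4.51), Hspb1 (5.37 against 4.76 to 4.93) and Nr4a2 (1.18 against -0.92 to -0.61). Non-perfused replicate 3 lay below the other 4 hearts of its group for Mrpl34 (4.56 against 4.70 to 4.74). Non-perfused replicate 4 lay below the other 4 hearts of its group for Cma1 (-2.57 against -1.56 to -1.27) and Ptx3 (-7.21 against -5.64 to -5.25). Non-perfused replicate 5 lay below the other 4 hearts of its group for Ucp2 (0.08 against 1.13 to 1.56). Glucose-perfused replicate 1 lay above the other 4 hearts of its group for Igf1 (3.30 against 2.97 to 3.05). Glucose-perfused replicate 1 lay below the other 4 hearts of its group for Slc2a1 (0.40 against 1.08 to 1.33) and Ucp2 (-0.31 against 0.24 to 0.46). Glucose-perfused replicate 2 lay below the other 4 hearts of its group for Gadd45b (3.70 against 3.99 to 4.05) and Tas2r120 (-6.25 against -5.75 to -5.62). No perfused heart had Tas2r120 well above background. Glucose-perfused replicate 3 lay below the other 4 hearts of its group for Dll4 (-1.58 against -0.73 to -0.48). Glucose-perfused replicate 4 lay above the other 4 hearts of its group for Dnaja1 (3.92 against 3.0 to 3.14), Hba-a1 (3.95 against 2.39 to 2.70), Jund (5.21 against 4.86 to 4.90), Lipe (-1.23 against -2.01 to -1.81), Npy (-3.18 against -4.89 to -4.50), Plaur (-1.50 against -2.25 to -2.20) and Slc25a25 (3.86 against 3.13 to 3.29). Glucose-perfused replicate 4 lay below the other 4 hearts of its group for Rgs1 (-1.49 against -0.98 to -0.89). No cause of these deviations was tested.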

How the results depend on the processing

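The count of genes called between glucose-perfused and non-perfused chow hearts stayed within 1.5 times of 1740 under every alternative except 3. The authors' deposited values called 418 (302 higher, 72.2% against 57.6%, with a median change of all genes of -0.14), normexp background correction called 1141 (741 higher), and a fit of only the groups compared with replicate block called 1034. Of those calls, 415, 1095 and 922 were also called in the same direction by the main setting. Slide as a fixed block gave 2406, array weights 2352, no filter on dim genes 1436 and leaving out each array in turn 1497 to 1631. Without the 4 arrays of noisy negative control spots, chosen after seeing the data, it was 1667. Of the chow hearts, these arrays included only non-perfused replicate 2. The replicate block in the fit of all arrays gave 1631: same-numbered hearts correlated in their residuals by 0.086 to 0.352, replicate 2 below 0.1, and no label says what a number shares, so the numbers were not taken as pairs, although same-numbered chow hearts of both groups share a slide. Both other comparisons, glucose with mannitol and diet by glucose perfusion, called 0 genes under all alternatives run. Of the genes described, 38 lost their call with the authors' values, 13 with normexp and 27 with only the groups compared and the replicate block. The sign turned, without a call on either side, for Gapdh (-0.05 in the main setting: -0.13 to 0.03 without single arrays), Ppargc1a (0.09 in the main setting: -0.03 with authors' deposited values), Slc2a1 (0.06 in the main setting: -0.01 with authors' deposited values, -0.16 with array weights, 0.00 without arrays of high control spread, -0.03 to 0.22 without single arrays). The cause was not tested. Normexp moved the change of 56 of the genes described by over 1.5-fold.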

Other observations

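The genes and families of this section were chosen after their values were seen and are described only. Genes named Zfp, which mostly encode zinc finger proteins, fell more often than they rose: of 148 tested, 33 fell (22.3%, against 4.02% of all genes) and 6 rose, with a median change of -0.19. In sucrose hearts, with their own controls, 26 fell and 7 rose. All 3 called linker histone genes of 5 fell: H1f4 fell by 1.66 ± 0.22 (SE, log2, 3.15-fold, adjusted p = 4.89e-06), H1f5 fell by 1.64 ± 0.29 (SE, log2, 3.13-fold, adjusted p = 0.000259) and H1f1 fell by 1.30 ± 0.26 (SE, log2, 2.46-fold, adjusted p = 0.00104). Of 7 GTPases of the GIMAP family, known from lymphocytes, 5 fell and none rose. Gimap7 stood at -0.14, 0.14, -0.02, -0.09 and 0.07 without and at -1.07, -1.26, -1.04, -1.45 and -1.13 with perfusion and fell by 1.18 ± 0.16 (SE, log2, 2.27-fold, adjusted p = 5.58e-06). The summed linear level of T cell and natural killer cell markers (15 of 18 tested) ran from 2.42 to 3.37 without and from 3.51 to 4.66 with perfusion. That sum leans on Nkg7 and Cd3d. The part of such cells in these falls was not tested.

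Several large rises belonged to no list. Rasd1, a RAS-like GTPase induced by glucocorticoids, rose by 3.57 ± 0.25 (SE, log2, 11.8-fold, adjusted p = 5.82e-11), and Rgs1, which ends signalling of chemokine receptors, rose by 3.41 ± 0.34 (SE, log2, 10.6-fold, adjusted p = 2.63e-08). Ptx3, a secreted pattern recognition protein, rose by 3.38 ± 0.38 (SE, log2, 10.4-fold, adjusted p = 2.08e-07), but by 2.13 over the mean of its probes. Tnfaip6, which binds hyaluronan, rose by 2.43 ± 0.27 (SE, log2, 5.39-fold, adjusted p = 2.28e-07). Sat1, the rate-limiting enzyme of polyamine breakdown, rose by 2.76 ± 0.22 (SE, log2, 6.78-fold, adjusted p = 3.93e-10). Rnd1 and Rnd3, atypical small GTPases that lower actin contractility, rose by 2.61 ± 0.23 (SE, log2, 6.11-fold, adjusted p = 4.24e-09) and by 2.47 ± 0.26 (SE, log2).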
